A study of Mus musculus with 18 samples.

Results

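The receptor activity-modifying proteins (RAMPs) and the adrenomedullin receptor system were described in wt1-SAM brown adipocytes as 6 genes, Ramp1, Ramp2, Ramp3, Calcrl, Adm and Ackr3, of the 54347 genes in the count table. They were taken by their symbols, and all 6 were found. The set was chosen from earlier results of these libraries in which Ramp3 was higher after isoproterenol, so every isoproterenol value of the 6 genes is given here as a description without a test. The contrasts between LNAs were not used in that choice and were tested.

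wt1-SAM is an immortalised mouse brown preadipocyte line that stably expresses the SAM system for CRISPR activation, and all groups share this line, so the libraries describe 1 line in culture and no tissue. The cells were differentiated for 7 days in medium with rosiglitazone, after an induction mix that also held T3, dexamethasone, insulin, indomethacine and the phosphodiesterase inhibitor IBMX. At day 4 of differentiation, 500000 cells per well were reverse transfected with 1 of 3 locked nucleic acid (LNA) antisense oligonucleotides: the non-targeting ctrlA, or LNA1 or LNA2, which are directed against the lncRNA Gm15551. Each LNA was combined with no stimulation (unstimulated) or with 1 µM isoproterenol, an agonist of β-adrenergic receptors, during the last 24 h (stimulated). This gave 6 groups of 3 polyA RNA libraries, numbered 2, 3 and 4 within each group, and nothing in the labels says whether the numbers are separate differentiations, so p-values measure the spread between these libraries.

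RAMPs are small single-pass membrane proteins that travel to the cell surface with G-protein-coupled receptors and set which ligand the receptor prefers. With RAMP1, the calcitonin receptor-like receptor (encoded by Calcrl) binds calcitonin gene-related peptide, and with RAMP2 or RAMP3 it binds adrenomedullin, the vasodilator peptide encoded by Adm. These receptors signal mainly through Gs and cAMP, the second messenger that isoproterenol also raises, and they are best known from blood and lymphatic vessels. Ackr3 encodes an atypical chemokine receptor that takes up CXCL12, CXCL11 and adrenomedullin without classical G-protein signalling.

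The oligonucleotides are the treatment that the LNA contrasts turn on, and their sequences are shown 5′ to 3′ for comparison with the members' transcripts.
ctrlA: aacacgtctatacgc
LNA1: gatgactgagattaga
LNA2: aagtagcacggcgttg
LNA1 and LNA2 are 16 nt long, and all 16 nt pair with the Gm15551 transcript of GENCODE, whereas the longest paired run of the 15 nt ctrlA in it is 4 nt. In the transcripts of the 6 members, the longest run of pairing was 5 to 8 nt for LNA1 and LNA2 and 5 to 7 nt for ctrlA. Introns outside the annotated transcripts were not searched.

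The promoters are shown for Ramp3 and Ackr3, which had the highest ratios of stimulated to unstimulated level, and for Adm, whose level was similar in both states. Each run holds the 250 bases before the RefSeq start (build GRCm38.p6), with capitals for GC boxes (GGGCGG or CCGCCC) and for the letters TATAAA.
Ramp3, chr11:6658283-6658532, plus strand: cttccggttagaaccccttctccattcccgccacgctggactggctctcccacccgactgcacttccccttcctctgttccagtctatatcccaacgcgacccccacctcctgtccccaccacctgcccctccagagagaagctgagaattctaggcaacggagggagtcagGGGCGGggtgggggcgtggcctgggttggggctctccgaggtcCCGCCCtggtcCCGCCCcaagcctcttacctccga
Ackr3, chr1:90203730-90203979, plus strand: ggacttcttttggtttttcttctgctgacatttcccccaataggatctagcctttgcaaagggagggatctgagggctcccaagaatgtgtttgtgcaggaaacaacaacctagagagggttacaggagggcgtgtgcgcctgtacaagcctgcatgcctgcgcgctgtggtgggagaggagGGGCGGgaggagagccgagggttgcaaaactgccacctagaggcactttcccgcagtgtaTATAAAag
Adm, chr7:110627407-110627656, plus strand: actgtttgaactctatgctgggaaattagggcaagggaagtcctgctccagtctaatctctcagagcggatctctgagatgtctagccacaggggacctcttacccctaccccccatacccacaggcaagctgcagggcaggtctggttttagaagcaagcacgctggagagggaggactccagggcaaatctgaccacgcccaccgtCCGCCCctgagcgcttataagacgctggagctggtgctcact
Windows of 300 bases, from 250 before to 50 after the start, were at hand for 5 of the 6 members, and Ramp2 was the exception. None of the 5 held the palindromic cAMP response element TGACGTCA, which stood in 1.79% of 32851 mouse promoter windows. Its shorter core TGACG, searched on both strands and contained in the full element, was in the window of Ramp1 alone, 11 bases after the start (20.8% of all windows). The hypoxia response core ACGTG was in no window of the 5 (19.6% of all windows). A GC box was found in 4 of them, once in Calcrl, Adm and Ackr3 and 3 times in Ramp3 (35.7% of all windows). The letters TATAAA, the only form of a TATA box searched, stood in Ackr3 alone, 8 bases before the start (13.6% of all windows). These matches describe letters in a window only.

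Library totals ranged from 9167560 to 19723021 counts. Levels are given as CPM, counts divided by the TMM-scaled library total, and 3 counts, taken as the floor of detection, amounted to 0.170 to 0.306 CPM depending on the library. The targeted Gm15551 had 42 counts in all in the 6 ctrlA libraries, 24 with LNA1 and 27 with LNA2, and its log2 fold change was -0.70 (SE 0.59, unadjusted p = 0.240) for LNA1 and -0.43 (SE 0.57, unadjusted p = 0.449) for LNA2 by edgeR without a filter. With the replicate block in edgeR, a fit added for this gene after seeing the data, these were -0.67 (SE 0.50, unadjusted p = 0.175) and -0.47 (SE 0.47, unadjusted p = 0.317). A knockdown was thus not detectable in these libraries, and other measures of it were not analysed here. The libraries of replicate 2 stood apart, with 2.88% to 14.3% of counts on a ribosomal RNA gene against 0.285% to 1.04% in replicates 3 and 4, and with 7.86% to 9.79% mitochondrial counts against 2.56% to 4.97%. Adipocyte markers such as Fabp4 and Adipoq were abundant, with a summed level of 14052 to 28468 CPM. Of 10 endothelial markers 1, Pecam1, passed the filter on low counts and 7 never exceeded 3 counts in any library, with a summed level of 2.27 to 3.96 CPM in unstimulated and 1.83 to 4.44 CPM in stimulated libraries.

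All 6 members lay low in these cells. The mean over the 18 libraries was 3.62 CPM for Ramp3, 2.51 CPM for Adm, 2.5 CPM for Calcrl, 0.645 CPM for Ackr3, 0.439 CPM for Ramp2 and 0.272 CPM for Ramp1, beside a median of 21.0 CPM over the 14949 genes that passed the filter. Of the 6 members 5 passed the filter, and Ramp1 did not. Ackr3 passed through its stimulated libraries and Ramp2 through the unstimulated libraries of replicate 2, without which it was left out. Per kilobase of the longest coding transcript, the order differed between the states. In unstimulated cells it was Adm (1.77 CPM per kb, SD 0.334, n = 9), Calcrl (0.642, SD 0.214), Ramp2 (0.566, SD 0.504), Ramp3 (0.547, SD 0.413), Ramp1 (0.0798, SD 0.0405) and Ackr3 (0.0147, SD 0.0202). In that order Calcrl, Ramp2 and Ramp3 did not differ from their neighbours among these 3 beyond their SDs. In stimulated cells it was Ramp3 (5.33 CPM per kb, SD 1.98, n = 9), Adm (1.84, SD 0.64), Ackr3 (0.406, SD 0.422), Calcrl (0.38, SD 0.132), Ramp2 (0.18, SD 0.128) and Ramp1 (0.154, SD 0.0684). There Ackr3 and Calcrl, and Ramp2 and Ramp1, lay within their SDs of each other.

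**Figure D1:**
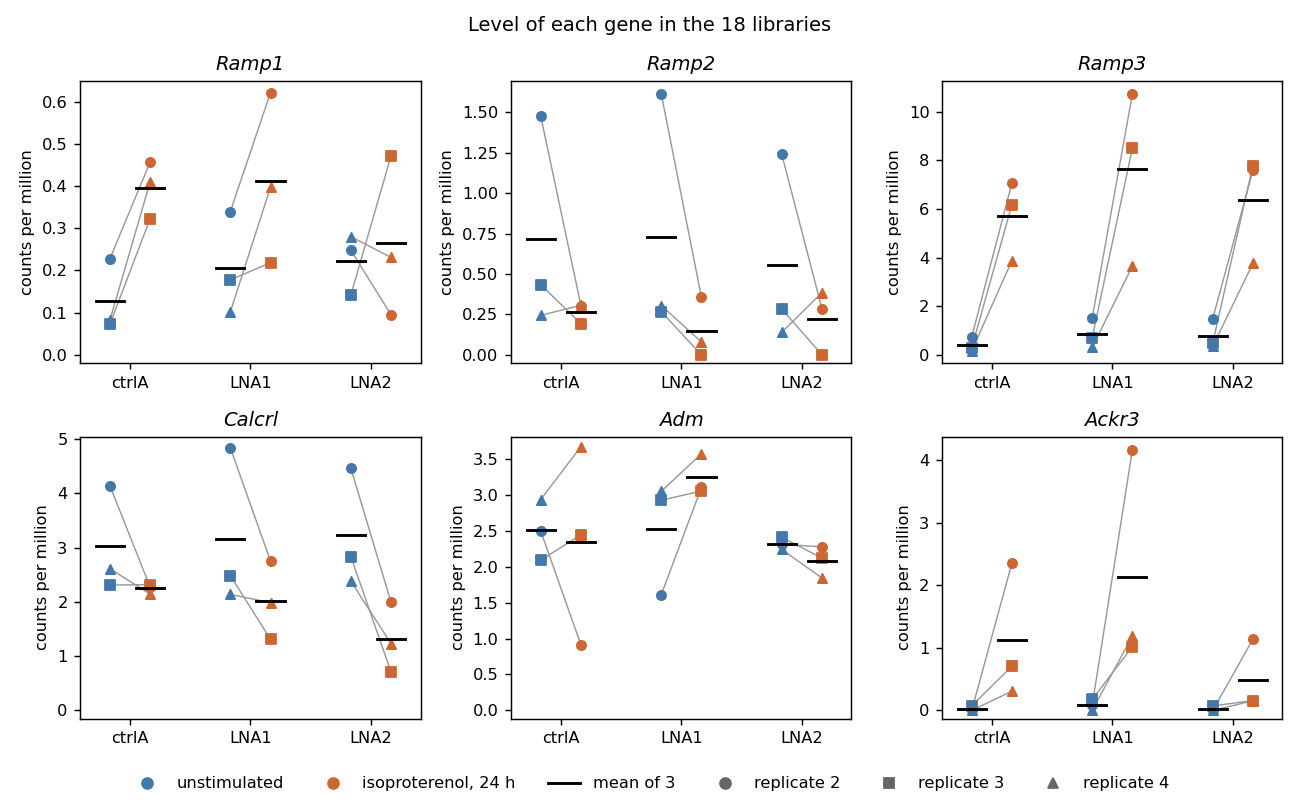
TMM-scaled CPM (vertical axis, linear, own scale per gene) of the 6 members in each of the 18 libraries, by LNA. Blue points are unstimulated and orange points stimulated libraries, point shape gives the replicate number, grey lines join the libraries of 1 LNA and replicate number, and black bars are means of 3. Ramp3 is higher in the stimulated library of all 9 pairs, from 0.163 to 1.53 CPM up to 3.65 to 10.7 CPM.

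Ramp3, the RAMP that directs the receptor to adrenomedullin and influences its recycling, had the clearest difference between stimulation states. In unstimulated ctrlA cells it stood at 0.737, 0.289 and 0.163 CPM in replicates 2, 3 and 4, and in stimulated ctrlA cells at 7.07, 6.18 and 3.88 CPM. With LNA1 it stood at 1.53, 0.71 and 0.305 CPM unstimulated and at 10.7, 8.51 and 3.65 CPM stimulated. With LNA2 it stood at 1.49, 0.496 and 0.350 CPM unstimulated and at 7.59, 7.78 and 3.77 CPM stimulated. The lowest stimulated library lay above the highest unstimulated one, so the states did not overlap, as was the case with the stimulated libraries above for 0.756% of all genes tested and below for 0.428%. The counts summed to 78 in unstimulated and 739 in stimulated libraries. The fitted log2 fold change was 3.31 (SE 0.37), a 9.91-fold higher level, and lay at 3.75 (SE 0.66) in ctrlA, 3.13 (SE 0.62) in LNA1 and 3.05 (SE 0.62) in LNA2. Without the unstimulated library of replicate 2 of the same LNA these were 4.59, 3.85 and 3.87.

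Within the replicate numbers the stimulated to unstimulated ratio of Ramp3 from summed counts was 7.12 (95% counting interval 5.25 to 9.85) in replicate 2, 15.3 (9.66 to 25.8) in replicate 3 and 13.7 (7.20 to 29.2) in replicate 4. In replicate 2, unstimulated Ramp3 was higher (0.737 to 1.53 CPM) than in replicates 3 and 4 (0.163 to 0.71 CPM). Without the 6 libraries of replicate 2 the log2 fold change was 3.89.

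Ramp2, the RAMP best known from vessel development, was in contrast lower after isoproterenol in 7 of 9 pairs. Unstimulated it stood at 1.47, 0.433 and 0.245 CPM in ctrlA, at 1.61, 0.266 and 0.305 CPM in LNA1 and at 1.24, 0.283 and 0.140 CPM in LNA2 (replicates 2, 3 and 4). Stimulated libraries held 0 to 0.384 CPM, with no count in replicate 3 of LNA1 and of LNA2. Only the unstimulated libraries of replicate 2, at 1.24 to 1.61 CPM, lay above the stimulated range by a wide margin. The summed counts were 81 unstimulated and 23 stimulated, and 10 of the 18 libraries were at or under 3 counts. The fitted log2 fold change was -1.69 (SE 0.64). From summed counts the ratio was 0.218 (0.103 to 0.418) in replicate 2, 0.216 (0.0394 to 0.784) in replicate 3 and 1.16 (0.396 to 3.44) in replicate 4. The summed counts of replicate 4 thus gave no lower level, with an interval that reaches both ways. There the LNA1 pair was lower after isoproterenol and the pairs of ctrlA and LNA2 were higher.

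Ramp2 counts are uncertain for another reason, since the gene (chr11:101246028-101259546, GRCm38) shares 1103 nt of exon with Vps25 on the same strand. Vps25, a subunit of the ESCRT-II sorting complex, stood at 68.8 CPM (SD 15.6, n = 9) unstimulated and 63.0 CPM (SD 11.1, n = 9) stimulated, and at a mean of 81.8 CPM in replicate 2 against 58.0 CPM in replicates 3 and 4. With isoproterenol it was not called (log2 fold change -0.13, SE 0.14, adjusted p = 0.823, edgeR). Ramp3 (chr11:6658521-6677475) overlaps 101 nt of exon of the pseudogene Gm11978 on the opposite strand, which had 0 or 1 count per library. Adm (chr7:110627661-110629820) lies opposite Gm28863 without overlap of exons, and Gm28863 had 0 to 3 counts.

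Ramp1, the RAMP of the calcitonin gene-related peptide receptor, was barely detected. It had 1 to 7 counts in each library and 62 in all, and 9 of the 18 libraries were at or under the floor. Its level was 0.227, 0.0722 and 0.0816 CPM in unstimulated and 0.456, 0.322 and 0.408 CPM in stimulated ctrlA cells (replicates 2, 3 and 4), from 1 to 6 counts per library. With LNA1 it stood at 0.102 to 0.340 CPM unstimulated and 0.218 to 0.621 CPM stimulated, and with LNA2 at 0.142 to 0.280 and 0.0949 to 0.472 CPM. Over all LNAs the stimulated library was higher in 7 of 9 pairs, and the ratio from summed counts was 1.90 (95% counting interval 1.10 to 3.35).

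The 3 RAMP genes thus had a different make-up in each state. Of the summed RAMP level per kilobase, Ramp3 made up 34.3% (SD 3.25, n = 3) in unstimulated ctrlA, 51.8% (SD 11.9) in unstimulated LNA1 and 54.1% (SD 3.08) in unstimulated LNA2 cells. Ramp2 made up 59.3% (SD 4.56), 40.8% (SD 13.1) and 33.8% (SD 10.9) of it in the same groups. In stimulated cells Ramp3 made up 91.6% (SD 3.36) with ctrlA, 95.03% (SD 3.21) with LNA1 and 93.4% (SD 4.93) with LNA2. The shares rest on 6 to 43 RAMP counts in each unstimulated and 45 to 132 in each stimulated library. In unstimulated ctrlA replicate 4, for instance, Ramp3 was 33.3% of 6 counts, with a 95% Wilson interval of 9.68% to 70.0%. The share of Ramp3 did not overlap between states (30.7% to 65.6% against 87.8% to 98.7%), which restates the rise of Ramp3 known when the set was chosen. Nor did it overlap between unstimulated ctrlA and either targeting LNA, but both comparisons use the same 3 ctrlA libraries. The Wilson intervals overlapped there, in replicate 2 at 18.6% to 45.1% with ctrlA, 29.9% to 59.0% with LNA1 and 34.5% to 65.5% with LNA2. How often such groups of 3 separate over all genes was not determined, so no LNA effect is read from it. The share was not tested because it is a score over members. It also carries the uncertainty of the Ramp2 counts.

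**Figure D2:**
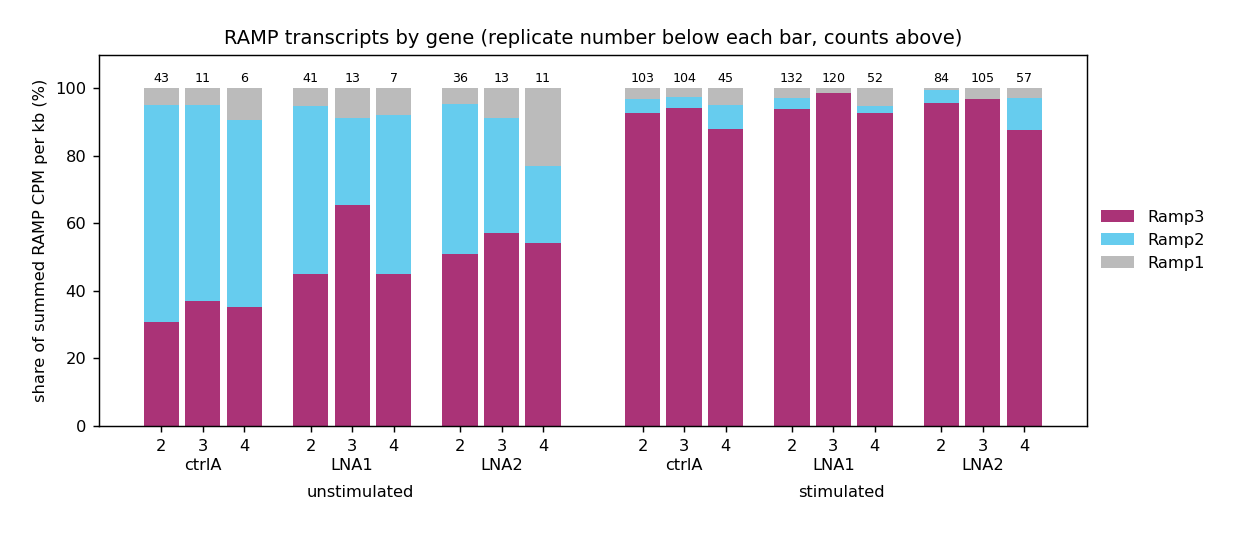
Share of the summed RAMP level (CPM per kilobase of coding transcript, percent) held by Ramp3, Ramp2 and Ramp1 in each library, with the replicate number and LNA below each bar and the number of RAMP counts above it. Ramp3 holds 87.8% to 98.7% in stimulated libraries and 30.7% to 65.6% in unstimulated ones, where 6 to 43 counts stand behind a bar.

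Calcrl, the receptor that all RAMPs pair with, was lower after isoproterenol in 8 of 9 pairs. In unstimulated cells it stood at 4.14, 2.31 and 2.61 CPM with ctrlA, at 4.84, 2.48 and 2.14 CPM with LNA1 and at 4.46, 2.83 and 2.38 CPM with LNA2 (replicates 2, 3 and 4). In stimulated cells it stood at 2.28, 2.32 and 2.14 CPM with ctrlA, at 2.75, 1.31 and 1.99 CPM with LNA1 and at 1.99, 0.707 and 1.23 CPM with LNA2. The pair that went the other way was replicate 3 of ctrlA, at 2.31 and 2.32 CPM, and the states overlapped. The fitted log2 fold change was -0.80 (SE 0.24), a level of 0.576 of the unstimulated one, and lay at -0.43 (SE 0.40) in ctrlA, -0.66 (SE 0.41) in LNA1 and -1.30 (SE 0.42) in LNA2. From summed counts the ratio was 0.529 (0.403 to 0.690) in replicate 2, 0.588 (0.422 to 0.815) in replicate 3 and 0.732 (0.520 to 1.03) in replicate 4.

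Calcrl shared with Ramp2 the high values of replicate 2. Its 3 unstimulated libraries of replicate 2, at 4.14 to 4.84 CPM, lay above all 6 of replicates 3 and 4 (2.14 to 2.83 CPM), the same libraries that were highest for Ramp2. After the group means were removed, Ramp2 and Calcrl had a Pearson r of 0.89 over the 18 libraries, which share depth and replicate number, so this is a description. The ribosomal RNA and mitochondrial shares given above are also higher in those libraries, and their part in these values was not tested.

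Adm, the ligand, was present at a like level in both states. It stood at 2.5, 2.09 and 2.94 CPM in unstimulated and 0.912, 2.44 and 3.68 CPM in stimulated ctrlA cells (replicates 2, 3 and 4). With LNA1 the values were 1.61, 2.93 and 3.05 CPM unstimulated and 3.11, 3.06 and 3.58 CPM stimulated. With LNA2 they were 2.31, 2.41 and 2.24 CPM unstimulated and 2.28, 2.12 and 1.84 CPM stimulated. The stimulated library was higher in 5 and lower in 4 of 9 pairs, the lowest value of all being stimulated ctrlA replicate 2. The log2 fold change was 0.03 (SE 0.21, 95% interval -0.38 to 0.44).

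Ackr3, which removes adrenomedullin and CXCL12 from the surroundings of a cell, had at most 2 counts in any unstimulated library and 2 to 47 counts in the stimulated ones. Unstimulated libraries held 5 counts in all, 5 of the 9 were at 0, and all 9 were at or under the floor. In stimulated cells it stood at 2.36, 0.708 and 0.306 CPM with ctrlA, at 4.17, 1.02 and 1.19 CPM with LNA1 and at 1.14, 0.157 and 0.154 CPM with LNA2 (replicates 2, 3 and 4). Replicate 2 was the highest in every LNA group. The stimulated library was higher in 9 of 9 pairs, as it was for 8.4% of all genes tested (lower in 9 of 9 for 6.91%). The states overlapped, since the lowest stimulated value was 0.154 CPM and the highest unstimulated one 0.177 CPM.

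The ratio of Ackr3 between states, from 137 stimulated and 5 unstimulated counts, was 28.6 (95% counting interval 11.9 to 89.4). By replicate number it was 107 (18.7 to 4267) in replicate 2, from 90 and 1 counts, and 6.30 (2.20 to 24.8) in replicate 3, from 27 and 4 counts, while replicate 4 had 20 and 0 counts. Within the LNAs it was 51.1 (8.72 to 2064) with ctrlA from 45 and 1 counts, 22.2 (7.30 to 110) with LNA1 from 76 and 3 counts, and 17.9 (2.78 to 749) with LNA2 from 16 and 1 counts. The fitted log2 fold change of 4.44 (SE 0.74) rests on the same 5 unstimulated counts, and it was 2.93 without the libraries of replicate 2. It may depend on the prior count of the fit, which was not tested.

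The LNA contrasts ask whether the members differ between cells that received a targeting and a non-targeting LNA. None of the 5 members tested was called with LNA1 or LNA2 (called: adjusted p below 0.05 and an absolute log2 fold change above 0.5, edgeR). The count was 0 in each of 3 contrasts averaged over the stimulation states, while of all genes 0.442% were called with LNA1, 1.42% with LNA2 and 0.923% between both targeting LNAs. No member had an unadjusted p below 0.05 there, and DESeq2 also called 0. Of the 14949 genes tested, 899, 1587 and 1375 had such a p with LNA1, with LNA2 and between them. DESeq2 called 133, 338 and 232 of them. With the replicate number as a block, 0 members were called as well, beside 2.43%, 5.53% and 4.11% of all genes in the same order. At an unadjusted p below 0.05 the block gave 1 of 5 members in each contrast, Ramp3 with LNA1 and with LNA2 and Ackr3 between them, beside 22.2%, 34.4% and 29.7% of all genes. The value of Ackr3 rests in part on unstimulated libraries at or under the floor, and nothing is read from it.

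Ramp3 was higher with a targeting LNA than with ctrlA in 5 of 6 pairs for LNA1 and in 5 of 6 for LNA2, stimulated replicate 4 being the exception in both. The pairs of both LNAs use the same ctrlA libraries, so these are not separate results. The share of all genes with such a count was not determined. The log2 fold change was 0.72 (SE 0.45, 95% interval -0.16 to 1.6, adjusted p = 1.00, edgeR) for LNA1 and 0.50 (SE 0.45, -0.38 to 1.38, adjusted p = 0.864) for LNA2. These did not pass the test, and over 26 alternative settings the adjusted p of LNA1 lay between 0.085, with the replicate block, and 1. The intervals reach from a lower level than in ctrlA to one 1.6 higher on the log2 scale.

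Ackr3 can be compared between LNAs in stimulated cells only, since all 9 unstimulated libraries were at or under the floor. There it was higher than in ctrlA in 3 of 3 pairs with LNA1 and lower in 3 of 3 pairs with LNA2. Stimulated LNA2 replicates 3 and 4 and stimulated ctrlA replicate 4 were also at or under the floor, so these pairs rest in part on floor values. The log2 fold change was 0.88 (SE 0.79, -0.67 to 2.43, adjusted p = 1.00, edgeR) for LNA1 and -1.29 (SE 0.89, -3.03 to 0.46, adjusted p = 0.939) for LNA2. Without stimulated LNA1 replicate 2 the value for LNA1 was -0.04, and without stimulated ctrlA replicate 2 it was 1.99. For LNA2 it became -2.79 once stimulated LNA2 replicate 2 was left out, and -0.18 once stimulated ctrlA replicate 2 was. The contrasts averaged over both states (1.25 for LNA1, -0.61 for LNA2 and -1.86 for LNA2 against LNA1) rest in part on 0 to 2 counts per library, and nothing is read from them for this gene.

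Calcrl had a log2 fold change of -0.05 (SE 0.29, -0.61 to 0.51) for LNA1 and -0.35 (SE 0.29, -0.92 to 0.21) for LNA2. Adm had 0.25 (SE 0.26, -0.25 to 0.75) and -0.13 (SE 0.26, -0.64 to 0.37). Ramp2 had -0.45 (SE 0.79, -2.0 to 1.09) and -0.35 (SE 0.77, -1.86 to 1.16). For Ramp1, the exact two-sided permutation test of CPM, with LNA labels exchanged within the stimulation states (400 arrangements, smallest possible p 0.005), gave p = 0.51 for LNA1 and p = 0.835 for LNA2.

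Within the stimulation states, 0 members were called in each of 4 contrasts by edgeR, none had an unadjusted p below 0.05, and DESeq2 called 0. Of all genes, 0% were called for LNA1 in unstimulated and 0.0134% in stimulated cells, and 0.194% and 0.207% for LNA2. In the same order, 427, 571, 704 and 1064 of the 14949 genes tested had an unadjusted p below 0.05 in edgeR. DESeq2 called 23, 50, 104 and 148 of them. The member nearest to a call was Calcrl with LNA2 in stimulated cells, where the log2 fold change was -0.79, with an SE of 0.43 (adjusted p = 0.82, edgeR). With the replicate block its adjusted p was 0.0512, still above the limit. The block called 0 members in the 4 contrasts, beside 0.602% and 1.45% of all genes for LNA1 (unstimulated and stimulated) and 2.79% and 5.51% for LNA2. Unadjusted p-values below 0.05 with the block were those of Ramp3 in unstimulated cells with LNA1 (12.2% of all genes) and with LNA2 (18.1%), of Calcrl and Ackr3 in stimulated cells with LNA2 (30.5%), and of 0 members in stimulated cells with LNA1 (15.6%).

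Whether the response to isoproterenol depended on the LNA was tested by the interaction terms. For LNA1 and LNA2, 0 of 5 members passed an adjusted p of 0.05 in edgeR or DESeq2, 0 had an unadjusted p below 0.05 in edgeR, and 0% of all genes passed for either term in edgeR. Of the 14949 genes tested, 105 and 116 had an unadjusted p below 0.05 in edgeR, and 0 and 2 passed in DESeq2. The interaction of Ramp3 was -0.62 (SE 0.89, -2.36 to 1.12) for LNA1 and -0.70 (SE 0.89, -2.45 to 1.05) for LNA2. That of Calcrl was -0.23 (SE 0.57) for LNA1 and -0.87 (SE 0.58, -2.01 to 0.26) for LNA2. For LNA2, 1 of 5 members, Calcrl, reached an unadjusted p of 0.0208 in edgeR with the block, where 807 of the 14949 genes tested were below 0.05. With intervals this wide, a difference in response between LNAs was not detectable in these libraries.

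**Figure D3:**
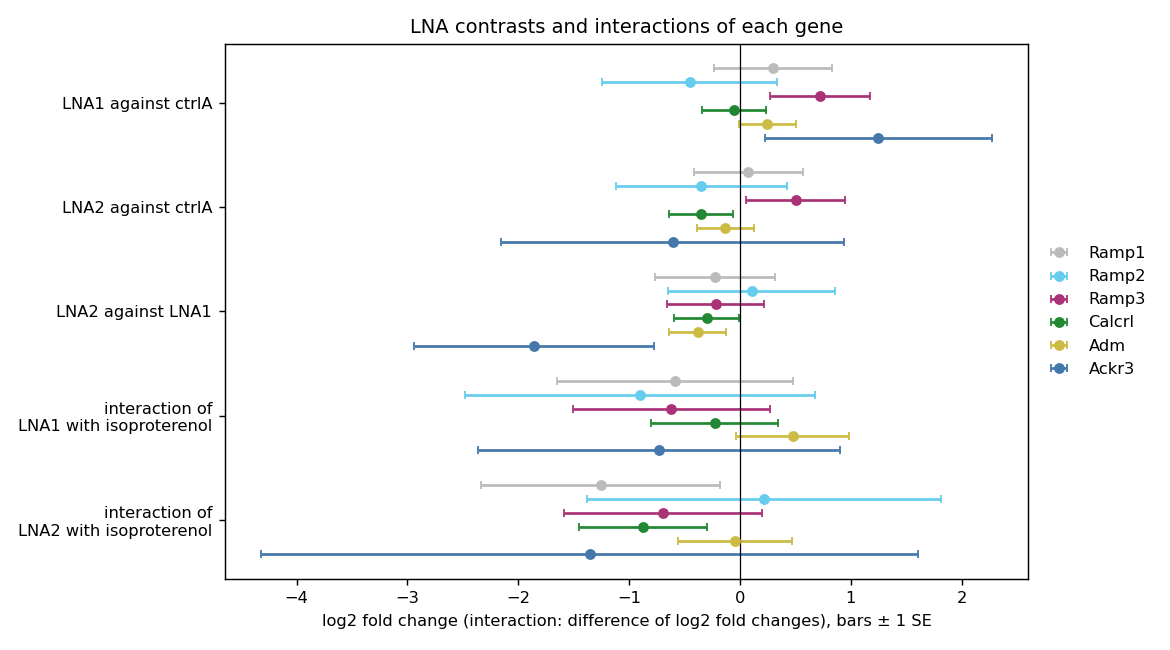
Log2 fold changes (horizontal axis) of the 6 members in the LNA contrasts averaged over stimulation states, and the interaction of each targeting LNA with isoproterenol. Points are edgeR estimates from 18 libraries with bars of 1 SE, Ramp1 from the fit without a filter. No estimate passes an adjusted p of 0.05, and Ackr3 has the widest bars.

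Partners of the receptor system formed a list of 36 further genes, of which 20 passed the filter. This list and those of hypoxia, cAMP and marker genes were, like the members, chosen with earlier results of these data known, so their counts and adjusted p-values with isoproterenol are not independent evidence of a direction. In the isoproterenol contrast, which called 3.2% of all genes (2.02% rose and 1.18% fell), 2 of the 20 fell and 0 rose in edgeR. Both encode class B receptors described to pair with RAMPs. The secretin receptor Sctr fell from 2.96 CPM (SD 0.930, n = 9) to 1.25 CPM (SD 0.3), a log2 fold change of -1.23 with an SE of 0.21 (adjusted p = 0.00288). The PACAP receptor Adcyap1r1 fell from 1.45 CPM (SD 0.426) to 0.535 CPM (SD 0.275), a log2 fold change of -1.48 with an SE of 0.25 (adjusted p = 0.00257). With the replicate block, without the libraries of replicate 2 and without stimulated ctrlA replicate 2 alone, 4 fell, beside 7% of all genes called and 3.13% that fell with the block. The further ones with the block were the VIP receptor Vipr1 (log2 fold change -0.74, adjusted p = 0.0124) and Cxcl12 (-1.96, adjusted p = 8.26e-09), the chemokine ligand of Ackr3. Without the block Cxcl12 was at -2.05 (SE 0.56) and missed the limit (adjusted p = 0.0526), with a mean of 11.8 CPM (SD 10.3) unstimulated and 2.86 CPM (SD 2.07) stimulated.

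Among the ligands of the family, Adm2, which encodes intermedin, had 2.72 CPM (SD 1.11) unstimulated and 2.05 CPM (SD 0.709) stimulated and was not called (log2 fold change -0.40, SE 0.28). Calca had 61 counts in 18 libraries, Iapp 2 and Calcb 0. Calcr, the calcitonin receptor that also pairs with RAMPs, had 3 counts in all, and Cxcr4, the signalling receptor of CXCL12, also had 3. Crcp, the receptor component protein that couples Calcrl to its signalling, stood unstimulated and stimulated at 29.8 CPM (SD 6.13) and 31.3 CPM (SD 5.29). Pam, which amidates adrenomedullin, stood at 25.8 CPM (SD 3.01) and 25.9 CPM (SD 4.14), and neither was called. The median log2 fold change of the 20 partners was -0.00205, beside -0.00206 over all genes.

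Adm is known as a gene induced by hypoxia, and 16 other hypoxia genes were followed beside it. Of these, 1 fell with isoproterenol and 0 rose. It was Ero1a, an oxidase of the endoplasmic reticulum, from 1511 CPM (SD 181, n = 9) to 953 CPM (SD 222), a log2 fold change of -0.68 with an SE of 0.12 (adjusted p = 0.00398, edgeR). Without the libraries of replicate 2 and with the replicate block 2 fell, the other with the block being Bnip3, a mitophagy receptor (log2 fold change -0.52, adjusted p = 0.000442). Vegfa and Slc2a1 stood at 415 and 270.2 CPM over all libraries and were not called. The median of the list was -0.04.

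Of 12 genes known to respond to cAMP, 11 passed the filter, 7 rose with isoproterenol and 0 fell. The largest changes were those of Ucp1, the uncoupling protein (log2 fold change 3.51, SE 0.17, adjusted p = 1.12e-08), of the nuclear receptors Nr4a3 (2.32, SE 0.30, adjusted p = 0.000244) and Nr4a1 (2.06, SE 0.19, adjusted p = 7.91e-06), and of the phosphodiesterase Pde4b (1.24, SE 0.23, adjusted p = 0.00457). The median of the 11 was 0.98. With LNA1 and LNA2 0 genes of the 3 lists were called in edgeR without the block. At an unadjusted p below 0.05 there were 1 partner, 0 hypoxia and 0 cAMP genes with LNA1, and 2, 5 and 2 with LNA2, beside 6.01% and 10.6% of all genes. DESeq2 called 1 partner with LNA2 and 2.26% of all genes. With the block, 1 partner and 1 hypoxia gene fell with LNA2, Mme, which encodes the peptidase neprilysin (log2 fold change -0.51, adjusted p = 0.0026), and Higd1a (-0.60, adjusted p = 2.22e-06), while 0 were called with LNA1. These are 1 of 20 and 1 of 16 genes beside the 5.53% of all genes that the block called with LNA2. Without replicate 2 the counts with LNA2 were 1 and 1 as well, and without stimulated LNA2 replicate 2 or 4 there was 1 partner. Between LNA2 and LNA1 the block also gave 1 partner and 1 hypoxia gene.

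**Figure D4:**
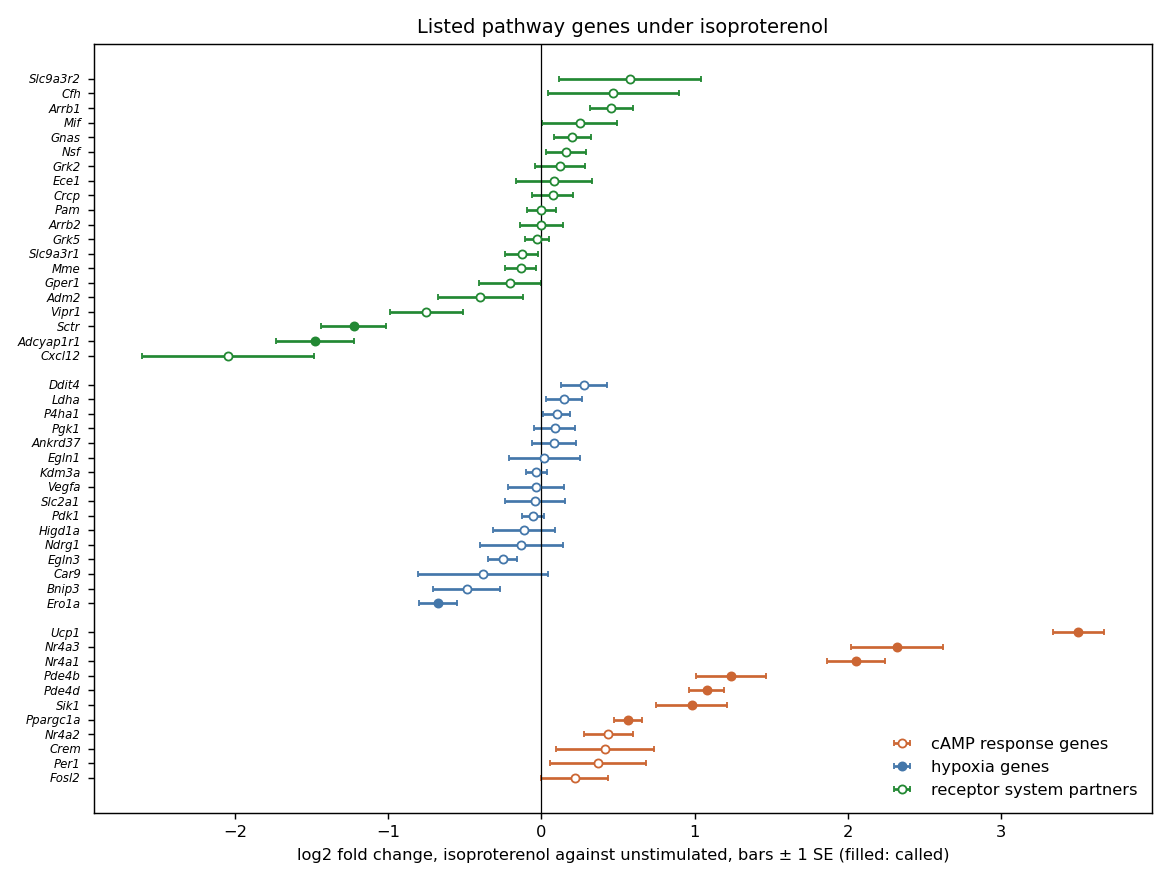
Log2 fold changes with isoproterenol (horizontal axis, bars of 1 SE, 9 against 9 libraries) of the listed cAMP response genes, hypoxia genes and receptor system partners that passed the filter. Filled points were called by edgeR without the block, 7 cAMP response genes above 0 and Ero1a, Sctr and Adcyap1r1 below 0.

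Of 25 cell type markers tested, 7 were adipocyte genes, 7 brown adipocyte genes and the rest markers of other cells. With isoproterenol 5 of the 25 rose and 1 fell. The risers included 3 brown adipocyte genes, Ucp1 (1.12 to 12.9 CPM), Ppargc1a (52.3 to 77.6 CPM) and Cidea (7.34 to 17.7 CPM). The other brown adipocyte genes were not called without the block. Of these, Elovl3 (253 to 326 CPM) and Cox7a1 (2.05 to 2.23 CPM) had higher means when stimulated. Ebf2 (34.1 to 24.0 CPM) and Prdm16 (6.78 to 5.87 CPM) had lower ones, and Dio2, with 19 counts in all, was not tested. Also rising were 2 markers of other cells, Cd68 and Ly6a, whose part in the values above was not tested. Among 5 macrophage markers Cd68 rose by 0.90 (SE 0.18, adjusted p = 0.00618, edgeR), the summed level of the list being 8.23 to 28.6 CPM unstimulated and 12.1 to 44.6 CPM stimulated. Csf1r was not called (log2 fold change 0.09), and Ptprc and Adgre1 had 12 and 4 counts in all libraries. Among 7 preadipocyte or fibroblast markers 5 were tested and Ly6a alone rose, by 1.58 (SE 0.41, adjusted p = 0.0415), with a summed level of 110.8 to 247 CPM unstimulated and 148 to 329 CPM stimulated. The other members of that list were not called, with mean levels of 22.3 and 17.9 CPM for Pdgfrb, 11.2 and 11.03 CPM for Pdgfra, 0.761 and 0.688 CPM for Cd34 and 132 and 165 CPM for Col1a1 (unstimulated and stimulated). Adipoq, the adipocyte hormone adiponectin, was the marker that fell, from 616 CPM (SD 102, n = 9) to 379 CPM (SD 84.3). With the replicate block 3 markers fell, the further ones being the brown adipocyte factor Ebf2 (log2 fold change -0.53, adjusted p = 6.45e-05) and Myh11, a smooth muscle myosin (-0.65, adjusted p = 0.0024).

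With the LNAs, 1 marker was called, Pdgfra, which rose with LNA1 by 0.89 (SE 0.13, adjusted p = 0.00743) and with LNA2 by 0.71 (SE 0.13, adjusted p = 0.0121). Of the other tested members of its list, Ly6a, Pdgfrb, Cd34 and Col1a1 had log2 fold changes of 0.15, -0.22, -0.34 and -0.31 with LNA1 and of 0.57, 0.20, -0.67 and -0.05 with LNA2, none of them called without the block. With the replicate block 5 markers rose with LNA2, the further ones being Cd68 (0.88, adjusted p = 7.74e-05), Csf1r (1.71, adjusted p = 0.00677), Myh11 (0.77, adjusted p = 0.0049) and Ly6a (0.66, adjusted p = 0.00549), beside 5.53% of all genes. The other tested smooth muscle or pericyte markers, Acta2 and Cspg4, lay at -0.31 and -0.15 with LNA2 in that fit and were not called. In a culture, more RNA per cell and more cells of a type cannot be told apart.

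The genes whose pattern over the 18 libraries was most like that of each member were found by Pearson r of log2 CPM among about 13170 genes with a mean of at least 1 CPM, as a description. For Ramp3 they were Ccn5 (r = 0.98), Nnmt (0.98) and Pappa2 (0.96). Ccn5, a matricellular protein, had 8.82 CPM (SD 2.92) unstimulated and 25.6 CPM (SD 6.58) stimulated, and Pappa2, a protease of IGF-binding proteins, 6.51 CPM (SD 1.81) and 23.4 CPM (SD 6.25). For Ackr3 they were Il1rl1, the IL-33 receptor (r = 0.89), Pak3 (0.89) and Nudt4 (0.89), and Il1rl1 stood at 1.19 CPM (SD 0.230) unstimulated and 4.01 CPM (SD 1.40) stimulated. For Calcrl they were Zfp597 (0.96), Msmo1 (0.95) and Echdc1 (0.95), for Ramp2 Osgin2 (0.91), Hps3 (0.90) and Dtl (0.90), and for Adm Gm15879 (0.88), Tmem223 (0.79) and Gm48604 (0.77). All points share the library, its depth and its replicate number.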

How the data were processed

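PolyA RNA libraries were sequenced as paired ends. The authors trimmed them using cutadapt, and salmon then assigned them to the transcripts of Gencode M22 (GRCm38), and strand use and versions are not given in the sources used here. The deposited values are estimated counts per gene, rounded to whole numbers before deposit and not scaled. salmon divides ambiguous fragments by probability, which makes overlapping genes such as Ramp2 and Vps25 uncertain.

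Counts of 54347 genes in 18 libraries were analysed in R 4.3.3 by edgeR 4.0.16. filterByExpr (minimum count 10, minimum total 15) kept 14949 genes. TMM scaling and 1 quasi-likelihood model with 1 term per group served all contrasts, with Benjamini-Hochberg adjustment over all genes tested. A gene was called at an adjusted p below 0.05 and an absolute log2 fold change above 0.5 (interactions by adjusted p alone). Ramp1, below the filter, was fitted without a filter and tested by exact permutation. The fit was also run on simulated counts with known changes, drawn without an effect of the replicate number. That check therefore says nothing about the replicate structure of the real libraries. Intervals are 95%, those of log2 fold changes being the estimate plus and minus the normal quantile times its SE, and those on counts cover counting error only.

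The members and gene lists were chosen with earlier results of these data known. Named genes were all members, at most 4 called genes per list and contrast by size of change, the 3 genes nearest in pattern to each tested member, and genes whose exons overlap a member. The TATA and GC box searches were added after the data were seen. The table itself named 31886 genes, a reference list named 22260 more, and 201 had no symbol. Coordinates and transcript lengths are from GENCODE M21, promoters from RefSeq and LNA sequences from the study's list.

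No pair of libraries was identical (chi-square per degree of freedom 4.44 to 189 over 18 pairs within groups). Residuals of all 45 same-numbered pairs correlated by more than 0.1 (0.24 to 0.72, median 0.43), so the replicate numbers were taken as pairs, from the data and not from the labels, and a fit with the replicate as a block was run beside the main one. Other alternatives were DESeq2 1.42.0 with and without the block, its size factors in edgeR, no filter, a filter of 1 CPM in 3 libraries, the table without ribosomal RNA and mitochondrial genes, the table without replicate 2, and each library left out in turn.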

Additional observations from a re-analysis of the deposited data

Results flagged for a closer look

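Ackr3 in unstimulated LNA1 replicate 3 stood at 0.177 CPM, far from the other 8 unstimulated libraries, but the value rests on 2 counts. About 1 in 20 such groups is flagged by chance, and 12 were looked at. Adm was higher in all 3 stimulated libraries with LNA1 (mean difference 0.715 CPM) and lower in all 3 with LNA2 (mean difference -0.239 CPM), and the difference between these responses was not tested. The pair differences with LNA1 reached from 0.128 CPM in replicate 3 to 1.49 CPM in replicate 2, and with LNA2 from -0.0345 CPM in replicate 2 to -0.396 CPM in replicate 4. How many of all genes go opposite ways like this was not determined.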

How the results depend on the processing

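The counts of called members stayed at 0 in all LNA and interaction contrasts under every setting run, the replicate block included, so the block changed no call of a member in these contrasts. The members' isoproterenol values were not tested. In the isoproterenol contrast, leaving out libraries moved Ackr3 to between 2.93 (without replicate 2) and 5.04, while the other members' averaged values moved by less than the spread between replicates. Within single LNAs (ctrlA, LNA1 and LNA2 in turn), leaving out libraries gave 3.42 to 4.59, 2.76 to 3.85 and 2.69 to 3.87 for Ramp3, -0.59 to -0.13, -0.93 to -0.21 and -1.7 to -1.0 for Calcrl, -1.84 to -0.36, -3.95 to -1.02 and -1.95 to 0.06 for Ramp2, and 3.49 to 6.87, 3.41 to 5.25 and 1.87 to 5.58 for Ackr3. In the same order the ranges for Adm were -0.56 to 0.27, 0.11 to 0.52 and -0.23 to -0.08. Those for Ramp1 were 1.25 to 2.24, 0.56 to 1.44 and -0.42 to 0.7. Without replicate 2, Ramp2 did not pass the filter, and under the strict filter the low members gave no value. Few counts limit Ramp1, Ramp2 and unstimulated Ackr3.

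The block moved the number of called partners with isoproterenol from 2 to 4 and of hypoxia genes from 1 to 2, in edgeR and DESeq2 alike, and with LNA2 from 0 to 1 for both lists. DESeq2 without the block also called 1 partner with LNA2. Leaving out libraries gave 2 to 4 partners and 1 to 2 hypoxia genes with isoproterenol, and 0 to 1 of either with LNA2, and the cause was not tested.

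The sign of small LNA effects, none of them called, changed in some fits. Adm with LNA1 in unstimulated cells was -0.02 without a filter and in both fits with the replicate block, Ramp1 with LNA1 in stimulated cells was -0.01 with the block in edgeR, and the LNA2 interaction of Adm was 0.02 with the block in both tools. The log2 values that changed sign when libraries were left out are given as ranges. For LNA1 against ctrlA they were Ramp2 -1.26 to 0.09, Calcrl -0.28 to 0.1. For LNA2 against ctrlA they were Ramp1 -0.26 to 0.68, Ramp2 -0.99 to 0.2, Adm -0.33 to 0.09, Ackr3 -1.51 to 0.26. For LNA2 against LNA1 they were Ramp1 -0.56 to 0.38, Ramp2 -0.52 to 0.91, Ramp3 -0.61 to 0.15. In unstimulated cells with LNA1 they were Ramp2 -1.35 to 1.09, Calcrl -0.38 to 0.36, Adm -0.15 to 0.28. In stimulated cells with LNA1 they were Ramp1 -0.33 to 0.32, Calcrl -0.44 to 0.07, Ackr3 -0.04 to 1.99. In unstimulated cells with LNA2 they were Ramp2 -1.74 to 0.64, Calcrl -0.19 to 0.39, Adm -0.22 to 0.01, Ackr3 -1.74 to 1.81. In stimulated cells with LNA2 they were Ramp2 -0.94 to 0.35, Ramp3 -0.06 to 0.42, Adm -0.57 to 0.29. For the LNA1 interaction they were Ramp2 -2.49 to 0.43, Ramp3 -1.46 to 0.09, Calcrl -0.53 to 0.21, Adm -0.13 to 0.93, Ackr3 -2.47 to 0.37. For the LNA2 interaction they were Ramp2 -0.87 to 1.51, Ramp3 -1.53 to 0.11, Adm -0.49 to 0.4, Ackr3 -3.09 to 0.45.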
